A study of Mus musculus with 8 samples.

Results

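Introns of at most 200 nucleotides (nt) that the deposited tables of retained introns list for mouse spermatocytes or round spermatids were described here. Intron length was taken as the start of the downstream exon minus the end of the upstream exon, and an intron with the same chromosome, strand, start and end was counted once. The rule gave 1181 introns in 903 genes, of 2941 retained introns in all. Of these, 1122 stood in the spermatocyte table, 1090 in the round spermatid table and 1031 in both.

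The study sequenced polyadenylated RNA of round spermatids, the haploid germ cells, and of spermatocytes, the germ cells in meiosis. Cells came from adult C57BL/6 mice conditionally deficient for Larp7 (a conditional knock-out) and from wild-type mice, and were sorted by flow cytometry after staining of their DNA with Hoechst 33342. The promoter that drove the deletion is not given in the sources used here. Each genotype and stage had 2 libraries, 8 in all, which the labels call biological replicates without saying that each came from its own animal, so p-values measure the spread between libraries, which may be technical. The tables number the sample groups of a stage as first and second and name no genotype. The text keeps those names and assigns no genotype to either.

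A retained intron is one that stays in a polyadenylated transcript after its neighbours have been removed. Short introns are commonly recognised across the intron itself, by pairing of its own donor and acceptor sites, whereas long mammalian introns are recognised across the exons beside them. Retained transcripts are often held in the nucleus or decayed when a stop codon is met in the intron. A few short introns are mirtrons, in which the spliced intron folds into a microRNA hairpin with no need for the nuclear cutting enzyme Drosha. Larp7 binds the 7SK RNA and takes part in the modification of U6 RNA, which pairs with the donor site during splicing.

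Sequence was read for the introns that a RefSeq microRNA or promoter record of GRCm38.p6, the mm10 assembly, covers. RefSeq hairpin records with a sequence cover 5 of the 1181 introns. The Cherp intron (chr8:72470016-72470089, minus strand, 74 nt) is shown whole because its ends are also the ends of the Mir7068 hairpin. The hairpin Mir7036 in Srrt (chr5:137296624-137296688, minus strand) ends at the 3′ end of its intron. Capitals mark the intron's donor GU where present and its acceptor AG.
Cherp intron and Mir7068 hairpin: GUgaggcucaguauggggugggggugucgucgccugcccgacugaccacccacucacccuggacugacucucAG
Srrt intron, 3′ part, Mir7036 hairpin: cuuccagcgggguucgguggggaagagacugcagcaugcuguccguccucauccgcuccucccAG

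Both of these hairpins list a mature 3′ arm that ends at the last base of its intron. Those arms are shown with the seed, bases 2 to 8, in capitals. The seeds differ from each other. Mir3572 in Cnot3 and Mir3057 in Apba3 cross from the intron into the downstream exon.
mmu-miR-7068-3p: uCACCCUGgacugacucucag
mmu-miR-7036a-3p: cCGUCCUCauccgcuccucccag

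Promoter records covered 7 donor sites and 4 acceptor sites of short introns, and each donor began with GT and each acceptor ended with AG. Those shown belong to introns whose retention is described next: Ydjc (acceptor, chr16:17147208-17147234, plus strand), U2af1l4 (donor, chr7:30563397-30563407, plus strand), Rnaseh2a (donor, chr8:84966078-84966088, minus strand) and the whole Wdr54 intron (chr6:83156246-83156319, minus strand). Capitals mark the GT and AG, and lower-case bases before a donor GT or after an acceptor AG belong to the exon.
Ydjc acceptor: gatcgctctcgcgctctgcccgtAGgc
U2af1l4 donor: caaGTgagaat
Rnaseh2a donor: ttgGTcagcat
Wdr54 intron: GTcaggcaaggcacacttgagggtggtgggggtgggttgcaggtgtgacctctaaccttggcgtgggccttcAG

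The median length was 101 nt, with quartiles of 83 and 139 nt, and 557 introns (47.2%) measured 70 to 100 nt. Lengths divisible by 3 made up 32.9% of the short introns, against 32.2% of longer retained introns. The 5 shortest entries were 1 nt long (Kndc1, Lig1, Nadk2, Tmem134 and Trerf1), and 3 more were of 2 to 50 nt, so these 8 rows need not be introns that a spliceosome removes. Of the genes, 710 held 1 short retained intron and 193 held 2 or more, with the most, 6, in Tmem191c. RefSeq matched the host gene of 1169 introns (99.0%), of which 1152 were in protein-coding genes and 15 in long noncoding RNA genes. Another RefSeq gene overlapped 75 of those introns, where reads of the neighbour would be counted as retention if the counting ignored strand, which the sources used here do not state. Not every overlap is named below, and introns of Rpl13, Rpl7a, Fdx1l, Snhg1 and Chkb were among the 75.

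In round spermatids the libraries held 481716 and 925339 (first group) and 549940 and 538027 (second group) reads over short introns, and in spermatocytes 603283 and 1133066 (first group) and 698826 and 670812 (second group). Levels are in RPM, reads per 1000000 of the sum over genes of each gene's most covered event. Of 10 round spermatid markers, 8 had an event in round spermatids and 7 in spermatocytes. They summed to 2855 to 3265 RPM in round spermatid libraries and 599 to 680 in spermatocyte libraries. Elongating spermatid markers, 3 of 7 with an event in each stage, summed to 8429 to 13964 RPM in round spermatid and 1711 to 2715 in spermatocyte libraries. The sum over spermatocyte markers was 1336 to 1637 in round spermatid and 3914 to 4903 in spermatocyte libraries. Not every marker followed that sum. Syce1 had 620 to 712 RPM in round spermatids and 473 to 618 in spermatocytes. Ccna1 had 332 to 532 in round spermatids and 301 to 459 in spermatocytes, which overlap. Markers of spermatogonia, 7 of 8 with an event in spermatocytes, summed to 233 and 60.5 RPM in the first group against 19.2 and 25.1 in the second spermatocyte group. Sertoli cell markers, 5 of 7 with an event, summed to 206 and 136 in the first group against 41.0 and 69.4 in the second. The part of other cell types in the results was not tested. Larp7 itself had 274 and 341 RPM in the first group against 1163 and 1259 in the second round spermatid group, and 183 and 219 in the first group against 1146 and 1077 in the second spermatocyte group.

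Most short introns had low retention levels, and a minority had high ones. Retention is the inclusion form's share of both forms, from inclusion and skipping reads each divided by the length of its form. It is given for introns with a mean of at least 10 reads per library in the stage (897 in round spermatids, 966 in spermatocytes). The level is set against splicing at the listed ends alone, so a high level need not mean that the sequence stays in transcripts. The Aspscr1 entry chr11:120709000-120709111 had mean levels of 78.7% in round spermatids and 86.7% in spermatocytes. The shorter entry inside it, chr11:120709000-120709070, had 3.71% in round spermatids and 10.1% in spermatocytes. The median level in round spermatids was 10.5% and 10.5% in the first group against 10.8% and 10.5% in the second sample group. In spermatocytes it was 17.1% and 15.2% in the first group against 15.2% and 15.3% in the second. All 4 round spermatid libraries lay below all 4 spermatocyte libraries, and the sample groups of a stage differed by no more than its libraries did.

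Between 17.9% and 18.7% of the introns had a level over 50% in a round spermatid library, against 21.2% to 22.1% in a spermatocyte library. Introns with a level under 5% made up 26.8% to 31.1% in round spermatids and 14.6% to 18.4% in spermatocytes. The lower part of the distribution thus differed more between the stages than the upper part. Introns over 200 and under 1000 nt had medians of 8.90% to 10.2% in round spermatid and 13.7% to 16.6% in spermatocyte libraries. Introns of 1000 nt or more had 6.51% to 7.74% in round spermatid and 12.1% to 14.0% in spermatocyte libraries.

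**Figure D1:**
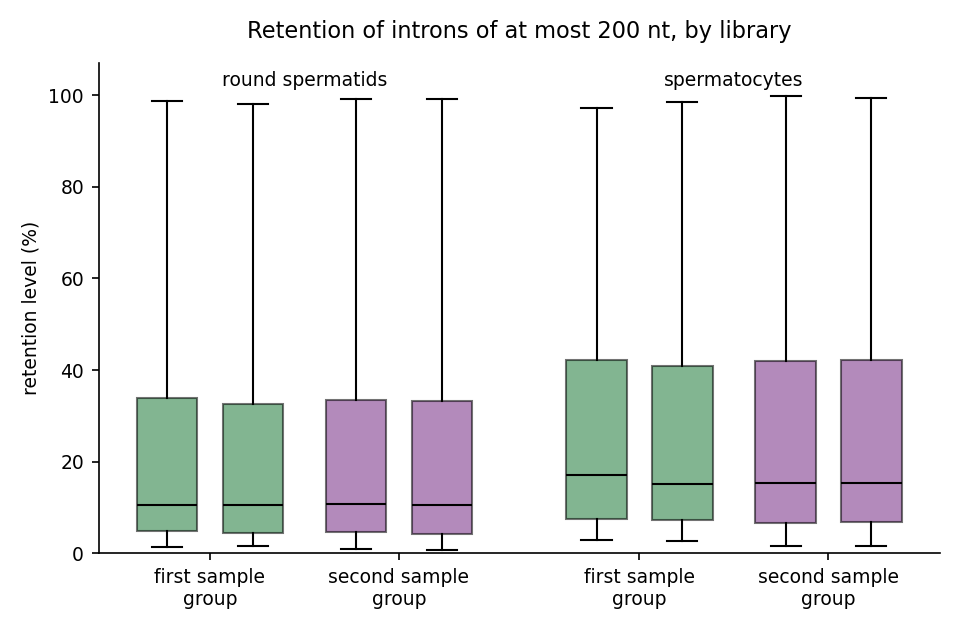
Retention level (%) of introns of at most 200 nt in each library; round spermatids left, spermatocytes right, the first sample group green and the second purple. Boxes span the quartiles, lines mark medians and whiskers reach the lowest and highest 5% of introns; medians lie between 10.5% and 10.8% in round spermatids and between 15.2% and 17.1% in spermatocytes.

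Within the short range, the level did not follow length steadily. Introns of 101 to 125 nt had the highest median among the 25-nt classes above 50 nt, 17.1% in round spermatids and 22.7% in spermatocytes. The class of 51 to 75 nt had 8.99% in round spermatids and 16.6% in spermatocytes, and that of 176 to 200 nt had 11.7% in round spermatids and 16.5% in spermatocytes. Levels were lower where reads were many. The median was 4.62% in round spermatids and 8.999% in spermatocytes for introns with at least 1000 reads per library, against 17.8% in round spermatids and 24.5% in spermatocytes for those with 10 to 50 reads. Read depth therefore moves with the level, and its part in it was not tested.

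At the upper end stood introns whose listed ends were almost never spliced to each other in either stage. Whether other ends were used was not tested. The Bsg intron (chr10:79710725-79710839), in the gene of basigin, a membrane glycoprotein needed for male fertility, was retained at 99.96%, 99.97%, 99.92% and 99.98% in round spermatids and at 99.98%, 99.97%, 99.99% and 100% in spermatocytes. The Rnaseh2a intron (chr8:84965994-84966085), in the gene of the catalytic subunit of RNase H2, stood at 99.75% to 99.87% in round spermatids and 99.76% to 99.92% in spermatocytes, although its donor shown above has the usual GT. The Wdr54 intron, with GT and AG at its ends, was retained at 98.0%, 98.6%, 99.2% and 98.8% in round spermatids and at 98.0%, 97.3%, 98.2% and 97.1% in spermatocytes. Nkiras2, Gm45861, Rb1cc1 (an autophagy factor), Rpgrip1 (a protein of the photoreceptor cilium), Med7 (a Mediator subunit) and Lrrc51 each had an intron at 99.17% or above in every library. None of these introns passed the test between stages.

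At the lower end, among introns with at least 100 reads per library, stood genes of the translation machinery. The Rpl13 intron, in a gene of a large ribosomal subunit protein, was retained at 0.441%, 0.188%, 0.262% and 0.171% in round spermatids and at 0.549%, 0.384%, 0.301% and 0.286% in spermatocytes. Rps16 stood at 0.281% to 0.608% in round spermatids and 0.243% to 0.820% in spermatocytes. Eef1g, a subunit of elongation factor 1, stood at 0.517% to 0.984% in round spermatids and 0.693% to 1.05% in spermatocytes. Of these 4, Rpl7a alone was called between stages, at 0.426% to 0.723% in round spermatids and 0.992% to 1.78% in spermatocytes (log2 odds difference -1.09, SE 0.30, limma adjusted p 0.00316).

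At the length limit of the rule, Btbd9, Rnpepl1 and Tecpr1 each held an intron of 200 nt, with levels of 50.8% to 80.4%, 6.36% to 9.75% and 7.20% to 46.1% in round spermatids. Just outside it, Cxcl16, Neurl4 and Rangrf held introns of 201 nt, with 0% to 12.4%, 6.36% to 9.39% and 1.59% to 2.29%. Among the shortest entries, the 33-nt Myo9b intron (an unconventional myosin) stood at 94.4% to 100% in round spermatids and 96.5% to 100% in spermatocytes. The 37-nt intron of Hsp90ab1, a cytosolic chaperone, stood at 95.2% to 99.1% in round spermatids and 97.3% to 97.9% in spermatocytes.

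Between the stages, short introns were less retained in round spermatids. Of 938 tested introns, 261 (27.8%) were called, where 12.5% of all tested events of the 5 types were called. Of these, 240 were lower in round spermatids (25.6% of tested, against 5.96% of all events) and 21 were higher (2.24%, against 6.5% of all events). The quasi-binomial test called 250 of the 938, against 10.6% of all events. Called means an adjusted p below 0.05 in a limma fit of the log2 odds of retention over the 8 libraries, with Benjamini-Hochberg adjustment over all tested events. The median log2 odds difference, round spermatids minus spermatocytes, was -0.46, and 689 introns (73.5%) lay below 0. Libraries of the stages did not overlap for 272 introns (29.0%, against 12.4% of all events).

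Longer retained introns moved the same way. Of 963 introns over 200 and under 1000 nt, 269 (27.9%) were called lower and 42 (4.36%) higher in round spermatids. Their median log2 odds difference was -0.46. Of 442 introns of 1000 nt or more, 143 (32.4%) were called lower and 25 (5.66%) higher, with a median of -0.53. Called in either direction were 32.3% and 38.0% of these classes, larger shares than the 27.8% of short introns. Without the deepest round spermatid library, the second of the first sample group, 173 short introns were called between the stages, 163 of them lower. Without the spermatocyte library with the highest spermatogonial markers, 242 were called, 220 of them lower. The second sample groups alone gave 122 calls, 116 lower, and the first alone 182, 165 lower. In the reported fit the spread was taken wholly from events with similar reads, so that an intron's own spread did not enter its standard error. The 272 introns without overlap between the stages' libraries included 210 of the 261 called. Bulk RNA cannot tell whether fewer cells carried a retained transcript or each cell carried less.

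**Figure D2:**
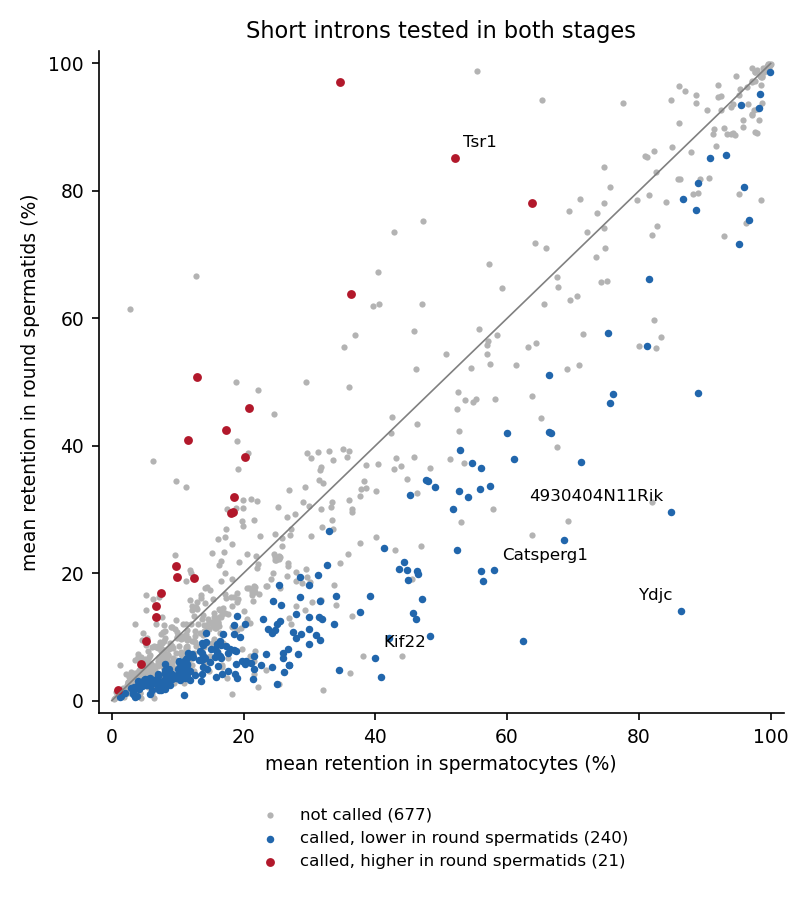
Mean retention level (%) over the 4 libraries of a stage for the 938 short introns tested in both, spermatocytes on the horizontal and round spermatids on the vertical axis. Blue points (240 introns) were called lower and red points (21) higher in round spermatids; most called points lie below the grey line of equal levels.

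Over the 240 introns called lower, the median of the mean levels was 6.77% in round spermatids and 17.6% in spermatocytes. The retained form had a median of 3.62 RPM in round spermatids and 11.6 in spermatocytes, and the spliced form 23.6 in round spermatids and 24.2 in spermatocytes. Retained reads were lower in round spermatids for 218 of the 240, and spliced reads were higher for 94. Both held for 72. Lower retained reads were common without a call as well, at 515 of the 677 introns not called and 747 of all 938 tested, and spliced reads were higher for 294 of the 938. Over all tested introns the median of the retained form was 1.93 RPM in round spermatids and 3.90 in spermatocytes, and that of the spliced form 5.404 in round spermatids and 8.64 in spermatocytes. For the 21 introns called higher, the medians were 29.6% in round spermatids and 12.9% in spermatocytes, yet retained reads were lower in round spermatids for 14 of them and spliced reads higher for 1.

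The widest difference was in Ydjc, a homologue of a bacterial sugar deacetylase. Its 86-nt intron (chr16:17147147-17147232), whose acceptor is shown above, was retained at 12.8%, 13.7%, 14.0% and 16.0% in round spermatids and at 88.4%, 82.3%, 89.4% and 85.4% in spermatocytes (log2 odds difference -5.14, SE 0.32, limma adjusted p 8.49e-55). All round spermatid libraries lay far below all spermatocyte libraries. The retained form had 4.69 RPM in round spermatids and 22.6 in spermatocytes, whereas the spliced form had 18.1 RPM in round spermatids and 2.27 in spermatocytes. RefSeq places the gene Ccdc116 over the same intron, so part of the reads may be that gene's, which was not tested.

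The 74-nt intron of 4930404N11Rik (chr10:81364668-81364741) was retained at 38.4%, 31.1%, 24.5% and 24.5% in round spermatids and at 86.5%, 85.5%, 84.7% and 83.1% in spermatocytes (log2 odds difference -3.78, SE 0.27, limma adjusted p 2.24e-40). The stages did not overlap, and Mfsd12 overlaps this intron in RefSeq. The 185-nt intron of Catsperg1 (chr7:29185252-29185436), an auxiliary subunit of the CatSper calcium channel of the sperm tail, stood at 22.7%, 20.3%, 18.8% and 19.96% in round spermatids and at 58.0%, 59.0%, 54.3% and 60.7% in spermatocytes (log2 odds difference -2.45, SE 0.16, limma adjusted p 1.42e-52). It had 2012 reads per library in round spermatids and 6158 in spermatocytes, the most of the 20 introns with the widest differences.

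Genes of RNA metabolism and the nucleus were among these 20. The Dxo intron (chr17:34838908-34838986), in the gene of a decapping exonuclease, stood at 21.2%, 18.4%, 13.7% and 10.6% in round spermatids and at 46.3%, 49.0%, 43.8% and 49.0% in spermatocytes. The Hdac5 intron (chr11:102195869-102195951), in the gene of a class IIa histone deacetylase, stood at 11.1%, 9.94%, 9.59% and 8.60% in round spermatids and at 33.4%, 41.0%, 45.5% and 48.3% in spermatocytes. For both, every round spermatid library was lower than every spermatocyte library (limma adjusted p 9.86e-15 for Dxo and 8.45e-13 for Hdac5).

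The Kif22 intron (chr7:127033036-127033161), in the gene of a kinesin that moves chromosomes, stood at 9.05%, 6.62%, 6.25% and 4.98% in round spermatids and at 39.3%, 39.5%, 46.9% and 34.1% in spermatocytes. The Nek8 intron (chr11:78170953-78171089), in the gene of a kinase of the primary cilium, stood at 20.7%, 8.31%, 13.6% and 8.70% in round spermatids and at 52.6%, 39.6%, 53.4% and 38.9% in spermatocytes. Again no library of one stage reached into the other (limma adjusted p 9.32e-13 for Kif22 and 3.64e-11 for Nek8). Ankzf1, which releases stalled nascent chains, Irf3, a factor of antiviral response, Pced1a and the tRNA enzyme gene Pus3 were also called lower without overlap between the stages. Hyls1 overlaps the Pus3 intron in RefSeq.

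The call of 7 of the 20 rested on single libraries, with the values given as log2 odds differences. Sema4g, a semaphorin, lost its call without the second library of the first (-2.92) or of the second (-5.20) spermatocyte group. Mief2, a mitochondrial fission factor, lost it without the first library of the first (-2.49) or the second of the second (-2.11) round spermatid group. Trmt1, a tRNA methyltransferase, lost it without the first library of the second round spermatid group (-1.58).
Mettl17, a factor of the mitochondrial ribosome, lost it without the second library of the first (-3.34), or either library of the second (-5.07 and -3.35), round spermatid group. Ptpn6, a phosphatase of blood cells, lost it without either library of the second round spermatid group (-3.62 and -3.55) or the second library of either spermatocyte group (-1.33 in the first and -5.87 in the second), and had too few reads to be tested without the second library of the first round spermatid group. Rundc3a lost it without any of 6 libraries, at values between -4.74 and -1.25, the exceptions being the second library of the second round spermatid group and the first of the first spermatocyte group. Arhgef25, a guanine nucleotide exchange factor that was higher in round spermatids, lost it without the second library of the first (2.74) or of the second (2.02) round spermatid group. All 7 had a mean of 28.5 reads or fewer per library in 1 of the stages. Pkp3, called higher, could not be tested when any 1 of 4 of the libraries was left out.

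Tsr1, needed for maturation of the small ribosomal subunit, showed the opposite direction. Its 81-nt intron (chr11:74907965-74908045) was retained at 83.7%, 90.0%, 82.9% and 84.2% in round spermatids and at 39.0%, 56.7%, 49.4% and 62.9% in spermatocytes (log2 odds difference 2.44, SE 0.30, limma adjusted p 2.08e-14). All round spermatid libraries were above all spermatocyte libraries, and Srr overlaps this intron in RefSeq. Hnrnpk, an RNA-binding protein of the hnRNP family, had a 78-nt intron at 17.5%, 20.4%, 19.6% and 19.4% in round spermatids and at 11.4%, 11.6%, 12.7% and 14.3% in spermatocytes (log2 odds difference 0.76, SE 0.15, limma adjusted p 1.26e-05). The 175-nt intron of the ribosomal protein gene Rpl7 stood at 1.33%, 1.88%, 1.64% and 1.82% in round spermatids and at 0.895%, 0.928%, 1.02% and 1.15% in spermatocytes, again without overlap (limma adjusted p 0.00555).

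**Figure D3:**
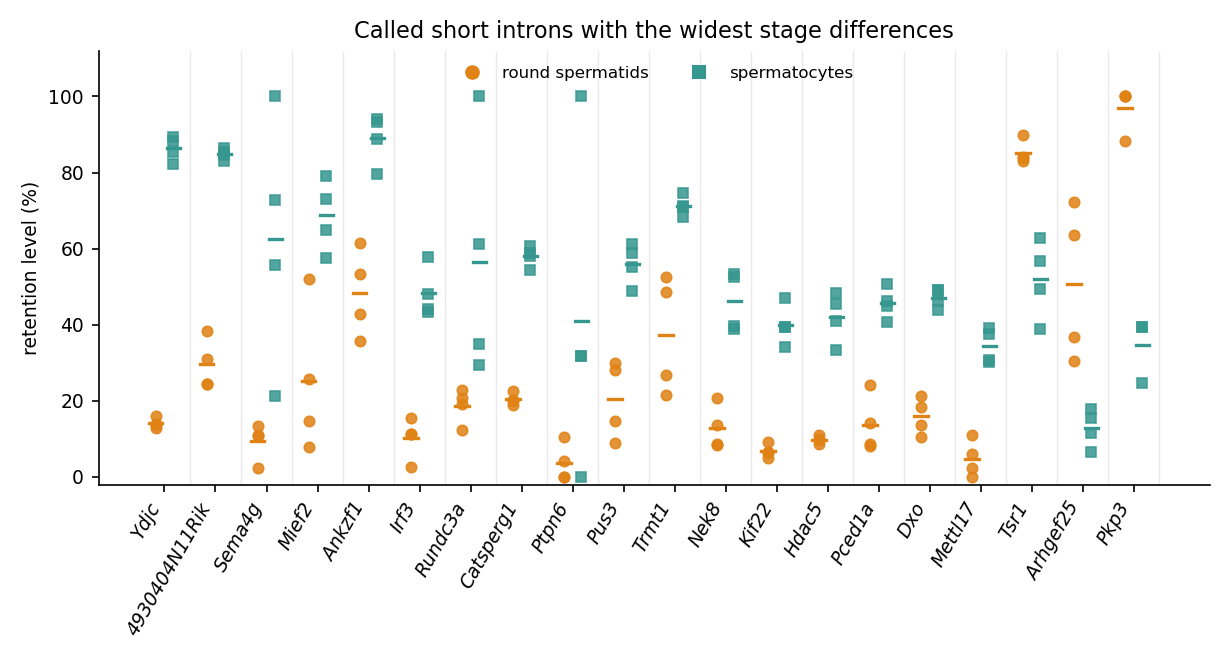
Retention level (%) of the 20 called short introns with the widest differences between mean levels, 4 round spermatid libraries (orange circles) left of 4 spermatocyte libraries (teal squares), with bars at the means. All but 3 are lower, and Tsr1, Arhgef25 and Pkp3 are higher, in round spermatids; 1 spermatocyte library had no read for Pkp3, and points at 0% or 100% rest on few reads.

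Several genes held more than 1 called intron. Called introns fell in 201 genes, and 43 genes held 2 or more of them. In 40 of the 43 all were lower in round spermatids, in Tbc1d17, a Rab GTPase-activating protein, both were higher, and in Drap1 and Rundc3a directions were mixed. Since 240 of all 261 called introns were lower, most such genes would hold lower introns alone without any link between introns of a gene. Introns of 1 gene share transcripts and are not independent of each other. Some called entries of a gene also overlap, as in Sept4, Chkb, Zbtb17 and Aspscr1, and were counted as separate introns.

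All 5 tested introns of Catsperg1 and all 3 of its paralogue Catsperg2 were lower in round spermatids. In Catsperg1 they had mean levels of 4.81% to 23.6% in round spermatids and 10.4% to 58.0% in spermatocytes. In Catsperg2 they had 4.65% to 20.3% in round spermatids and 11.4% to 46.5% in spermatocytes. The genes are close copies, so reads may have been divided between them and their values are not independent. In Trim28, a corepressor bound by zinc finger proteins, all 3 introns were called, at 1.02% to 2.52% in round spermatids and 3.27% to 8.87% in spermatocytes. Skiv2l, a helicase that serves the cytoplasmic exosome, had all 3 called, at 4.03% to 11.2% in round spermatids and 12.6% to 23.7% in spermatocytes.

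Dvl1, a Wnt signal transducer, had all 3 called, at 4.83% to 12.1% in round spermatids and 11.5% to 33.8% in spermatocytes. In Gas5, a noncoding host gene of small nucleolar RNAs, 4 of 5 tested introns were called lower in round spermatids. Its 193-nt intron (chr1:161036015-161036207) stood at 2.46%, 3.01%, 4.87% and 3.88% in round spermatids and at 14.9%, 13.9%, 22.4% and 24.8% in spermatocytes (log2 odds difference -2.62, SE 0.24, limma adjusted p 6.40e-25). RefSeq places other genes over 3 of the Gas5 introns.

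**Figure D4:**
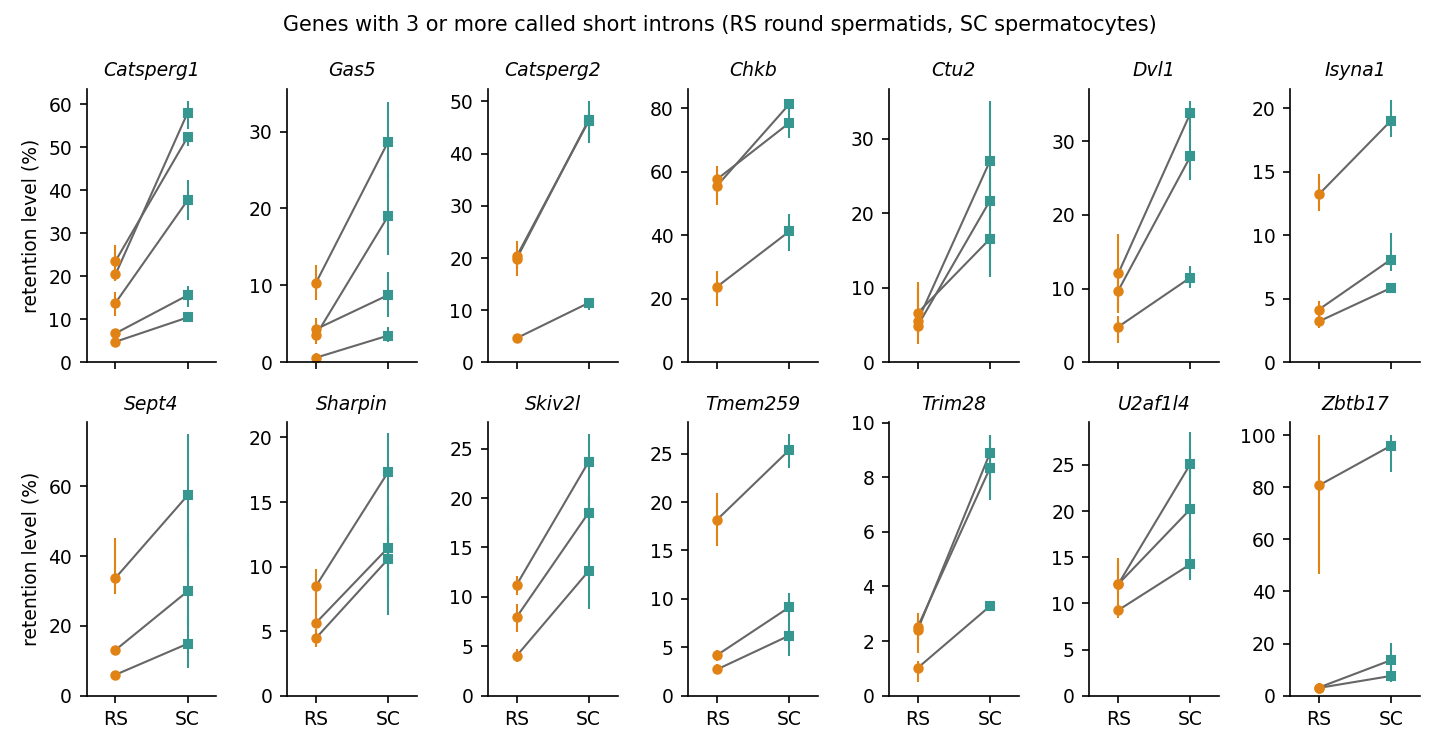
Mean retention level (%) of each called short intron in the 14 genes with 3 or more of them, round spermatids (RS) left and spermatocytes (SC) right, with lines joining 1 intron and bars from the lowest to the highest of 4 libraries. Vertical scales differ between genes and start at 0; each of these introns is lower in round spermatids.

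The gene lists were read against the 27.8% called over all short introns. Their sizes were small and they left out some genes of their kind, so the counts describe the lists alone. Of the acrosome and sperm surface list, 9 of 10 tested introns were called lower, with a median log2 odds difference of -1.79, but 8 of these lie in Catsperg1 and Catsperg2. Of the flagellum list, 4 of 8 were called lower, 3 in Sept4, a septin of the sperm annulus, and 1 in Tekt2, a tektin of the axoneme. The Sept4 entries chr11:87589819-87589955 and chr11:87589819-87590008 overlap and are not independent. The Tekt2 intron stood at 10.2%, 6.50%, 4.86% and 5.52% in round spermatids and at 16.2%, 12.7%, 10.9% and 9.20% in spermatocytes, and these ranges overlap (limma adjusted p 8.42e-08).

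Of the core spliceosome list, 4 of 5 were called lower. They were 3 introns of U2af1l4, a relative of the small subunit of U2AF, and 1 of Prpf40b, a U1-associated protein. The U2af1l4 intron whose donor is shown above stood at 14.3%, 11.5%, 11.4% and 11.1% in round spermatids and at 28.6%, 22.4%, 12.6% and 17.3% in spermatocytes, with 1 spermatocyte library inside the round spermatid range (limma adjusted p 0.0312). Psenen overlaps this intron in RefSeq. Of 12 introns in the splicing regulator list, 2 were called lower and that of Hnrnpk was called higher. Hnrnph1 was among the lower, at 7.59% to 12.2% in round spermatids and 15.8% to 20.6% in spermatocytes.

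Of 20 introns in the ribosome and translation list, 2 were called lower. The list had a median level of 3.14% in round spermatids and 3.90% in spermatocytes. It left out some ribosomal protein genes, among them Rpl23a, with an intron called lower, and Rpl7, called higher. Introns of Rpl7a and Rpl34 were called lower as well. In Eef2, elongation factor 2, the intron stood at 4.33%, 4.50%, 4.62% and 4.29% in round spermatids and at 8.12%, 8.27%, 9.16% and 6.83% in spermatocytes (limma adjusted p 2.79e-10). Of 15 introns in the chromatin list 2 were called, both in Hdac5 and both lower. That list left out other genes of its kind with introns called lower, among them Trim28, Carm1, Brpf1 and Smarcd2. Of 11 in the RNA processing list 1 was called lower, but that list left out Dxo, Skiv2l and Srrt, whose called introns are described elsewhere. The single tested intron of the meiosis list, in Sycp3 of the synaptonemal complex, stood at 13.8% to 25.8% in round spermatids and 17.4% to 20.7% in spermatocytes and was not called. Chpt1 overlaps the Sycp3 intron in RefSeq. The piRNA list held no short retained intron.

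Of the 5 introns covered by those hairpin records, the Srrt intron was called. RefSeq also places the gene Mir6970 over a Skiv2l intron (chr17:34845101-34845167), which was called too, at 10.2%, 12.1%, 10.8% and 11.8% in round spermatids and 26.5%, 22.5%, 26.2% and 19.5% in spermatocytes (limma adjusted p 1.79e-08). Srrt (Ars2) joins the nuclear cap-binding complex and takes part in microRNA processing. Its intron stood at 6.95%, 7.24%, 5.56% and 5.07% in round spermatids and at 23.6%, 19.5%, 18.5% and 17.2% in spermatocytes (log2 odds difference -1.87, SE 0.34, limma adjusted p 1.07e-06). The Cherp intron, which is a hairpin from end to end, stood at 6.05%, 2.87%, 3.29% and 3.73% in round spermatids and at 7.98%, 5.23%, 3.30% and 3.65% in spermatocytes, with overlap between the stages. Cnot3 stood at 0% to 7.33% in round spermatids and 2.90% to 9.78% in spermatocytes. Apba3 stood at 7.38% to 9.66% in round spermatids and 10.9% to 14.2% in spermatocytes, and missed the threshold (limma adjusted p 0.0511). The tables measure the unspliced transcript and not the microRNA.

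Between the sample groups of 1 stage, few short introns were called. In round spermatids 0 of 897 were called (against 0.131% of all events), and the quasi-binomial test also called 0 (against 0.135% of all events), while 55 had an unadjusted limma p below 0.05. In spermatocytes 8 of 966 were called (0.828%, against 0.537% of all events), 3 higher (against 0.139%) and 5 lower (against 0.398%) in the first sample group. The quasi-binomial test called 6 of the 8 (against 0.314% of all events). The median log2 odds difference over short introns, first minus second group, was 0.03 in spermatocytes, whereas introns over 200 nt had a median of -0.21 with 8 called higher and 32 lower of 1519. None of the 8 was called without the first or without the second library of the second group, where the prior degrees of freedom of the spread were 1.16 and 1.18, and none was called with the spread set by total reads. Leaving out either library of the first group gave 20 calls (first library left out) or 16 (second left out), of which 3 and 2 were among the 8.

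The 2 short introns of Larp7 itself were higher in the first group of spermatocytes. The 85-nt intron (chr3:127547005-127547089, minus strand) stood at 31.7% and 28.2% in the first group against 7.12% and 8.50% in the second group (log2 odds difference 2.29, SE 0.22, limma adjusted p 1.20e-21). It had 235 and 434 retained and 323 and 704 spliced reads in the first group, against 406 and 437 retained and 3372 and 2996 spliced reads in the second. The groups thus differed in spliced reads far more than in retained reads. The round spermatid levels of this intron were 9.12% and 6.16% in the first group against 3.85% and 4.08% in the second group (limma adjusted p 0.197).

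The 72-nt Larp7 intron (chr3:127546404-127546475) stood at 14.2% and 16.4% in the first group against 7.47% and 7.37% in the second spermatocyte group (log2 odds difference 1.22, SE 0.23, limma adjusted p 8.65e-05). In round spermatids it stood at 7.16% and 5.93% in the first group against 5.31% and 4.36% in the second (limma adjusted p 0.641). The groups did not overlap in either stage, and Gm51018 overlaps this intron in RefSeq. Between stages both Larp7 introns were called lower in round spermatids.

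The third intron that was higher in the first spermatocyte group was a 193-nt intron of Mtfr1l, a relative of a mitochondrial fission regulator, at 7.29% and 6.28% in the first group against 3.31% and 2.73% in the second (log2 odds difference 1.18, SE 0.23, limma adjusted p 0.000296). In round spermatids it stood at 2.05% and 2.34% in the first group against 2.10% and 2.97% in the second, which overlap. Of the 5 that were lower in the first group, the widest was in Adgrl1, an adhesion receptor of neurons, at 21.5% and 34.9% in the first group against 81.3% and 72.4% in the second (log2 odds difference -3.07, SE 0.60, limma adjusted p 0.000311). Its round spermatid levels, 47.6% and 50.3% in the first group against 55.9% and 39.9% in the second, overlap. Gm10644 overlaps this intron in RefSeq.

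The Ccl27a intron, in a chemokine gene, stood at 32.4% and 41.0% in the first group against 59.0% and 58.4% in the second spermatocyte group (log2 odds difference -1.26, SE 0.24, limma adjusted p 0.000177). Snhg6 and Gas5, both host genes of small nucleolar RNAs, were lower in the first group. Snhg6 stood at 3.44% and 8.02% in the first group against 27.0% and 28.2% in the second (limma adjusted p 0.0300), with Mcmdc2 over the same intron in RefSeq. The Gas5 intron of 193 nt stood at 14.9% and 13.9% in the first group against 22.4% and 24.8% in the second (limma adjusted p 0.0187).
Rpl10a, a protein of the large ribosomal subunit, stood at 57.5% and 59.0% in the first group against 75.9% and 78.5% in the second (limma adjusted p 0.0218). In each of these 4 the spermatocyte groups did not overlap. In round spermatids Ccl27a stood at 30.0% and 34.0% in the first group against 37.6% and 36.6% in the second, and Gas5 at 2.46% and 3.01% in the first group against 4.87% and 3.88% in the second. Whether the group difference differed between the stages was not tested. Fdx1l, at 31.4% and 23.6% in the first group against 9.99% and 11.04% in the second, and Snhg1, at 2.88% and 4.19% in the first group against 12.4% and 9.59% in the second, missed the threshold (limma adjusted p 0.0674 and 0.0816).

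**Figure D5:**
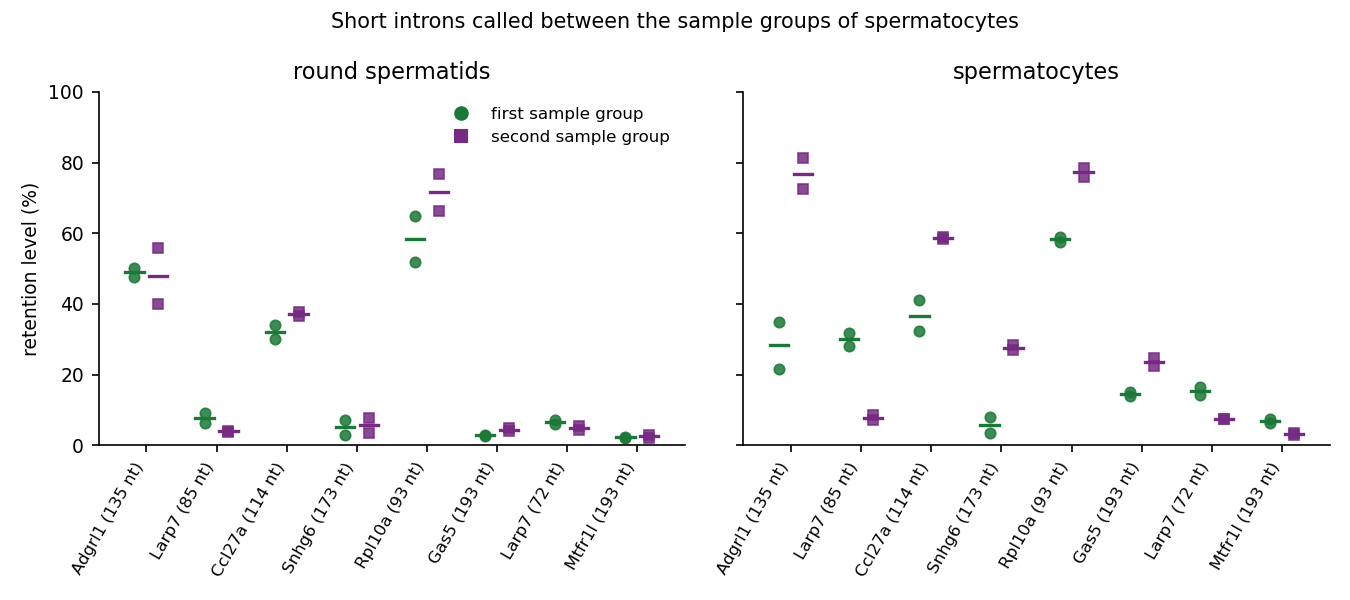
Retention level (%) of the 8 short introns called between the sample groups of spermatocytes, in round spermatids (left panel) and spermatocytes (right panel), with 2 libraries of the first group (green circles) left of 2 of the second (purple squares) and bars at the means. In spermatocytes the groups are apart for all 8; in round spermatids none was called.

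In round spermatids the smallest p was that of the 85-nt Larp7 intron. Pex6, a peroxisomal ATPase, stood at 7.20% and 5.83% in the first group against 1.96% and 1.12% in the second group, and Tekt2 at 10.2% and 6.50% in the first group against 4.86% and 5.52% in the second. Neither passed (limma adjusted p 0.452 and 0.514). Cpne1, a calcium-dependent membrane-binding protein, stood at 5.15% and 9.02% in the first group against 36.2% and 40.7% in the second on a mean of 20 reads per library, and did not pass either (limma adjusted p 0.607). Tgif2 and Cfb had smaller p than Tekt2, but their groups overlapped and neither was called (limma adjusted p 0.455 and 0.514). Cdk10, Dennd4b, Snx17 and Acap1 were also among the 10 of smallest p and were not called (limma adjusted p 0.641 for each). Means at least 10 points apart without overlap were seen for 62 of 897 introns in round spermatids (against 4.04% of all events). In spermatocytes they were seen for 98 of 966 (against 4.6%). Both shares were larger than those of all events.

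In the authors' deposited table the FDR was below 0.05 for 42 of the 897 tested short introns in round spermatids (against 2.4% of all events). In spermatocytes the authors' deposited table had 115 of 966 below 0.05 (against 4.8%). Both shares were larger than those of all events. All 8 introns called here in spermatocytes were among those 115.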

How the data were processed

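The submitters' processing notes name STAR as the aligner and mm10 as the build; the aligner's version is not given in the sources used here. Per the file headers, the 10 deposited tables, 1 per stage and event type, hold read counts of the retained (inclusion) and spliced (skipping) form for 2 sample groups, with the counts of 2 libraries joined in each cell. They also hold the authors' inclusion level fractions and level differences, form lengths, p-value and FDR. Levels recomputed from the deposited counts lay within 0.0005 of the deposited fractions. The inclusion form length was the intron length plus 149 in every row, and each intron had 1 row per table.

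Events with a mean of at least 10 reads per library and a read of each form were tested. Log2 odds, with 0.5 reads added on average to each form, were modelled by limma (version 3.58.1, R 4.3.3) with weights from the counting variance, an eBayes trend on reads of the rarer form and Benjamini-Hochberg adjustment over all 5 event types. Of the short introns in both tables, 93 were not tested between stages, and 15 tested ones had a library with no read, which the fit left out. The fit, taken from an earlier analysis, was tested on simulated data. Tables and figures used Python 3.11.15, pandas 2.3.3 and matplotlib 3.10.9. Short introns and gene lists were chosen with earlier results of these data known. Named were the 20 called introns with the widest stage differences, the 10 of smallest p within a stage, the most and least retained, the shortest, those at the length limit, and those in listed genes or with a printed sequence. Wdr54, Rpl7, Hnrnpk and genes with several called introns were chosen after their values were seen. No label ties libraries across groups. The values and sequence of 1 intron with a microRNA hairpin are not reported here.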

Additional observations from a re-analysis of the deposited data

Results flagged for a closer look

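In the Pkp3 intron (plakophilin 3, a protein of desmosomes), 1 round spermatid library stood apart from the others of its stage at 88.3%, against 100% in the other 3. It was the first library of the second sample group, and the intron had a mean of 19.5 reads per library in round spermatids and 2.25 in spermatocytes. It was called higher in round spermatids (log2 odds difference 4.08, SE 1.05, limma adjusted p 0.00157), with 1 spermatocyte library without reads, and lost the call in the second sample groups alone (3.303). It could not be tested with at least 20 reads, nor, with too few reads, without the second library of the first or either library of the second round spermatid group. Without the second library of the second spermatocyte group that group had no read of the intron, so no value was possible. Of the named introns, 40 sets of 4 libraries were examined, and chance flags about 1 in 20.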

How the results depend on the processing

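Between stages the 261 calls were 121 with at least 10 points, 122 from the second sample groups alone, and 173 to 242 with 1 library left out. In spermatocytes the 8 calls were 0 with a trend on total reads, 0 with no minimum on reads, 1 without count weights, 14 with adjustment over retained introns alone, 5 with at least 10 points, 115 by the authors' deposited FDR, and 0 to 20 with 1 library left out. In round spermatids the 0 calls were 42 by the authors' deposited FDR and 0 to 18 with 1 library left out. With the position of a library in its table cell as a replicate block, a pairing that no label states, calls were 283 between stages, 14 in spermatocytes and 2 in round spermatids. The prior degrees of freedom of the spread were infinite in the reported fits. With 1 library left out they were 0.568 to 1.18 within a stage and 20.6 to infinite between stages. Median retention in spermatocytes, 16.4%, was 18.3% with no minimum on reads. In round spermatids, 10.5%, it was 13.1% with no minimum, 9.83% with at least 20 reads, 10.7% up to 150 nt, 10.3% for introns in both tables and up to 11.02% with 1 library left out. The 20 introns with the widest stage differences and the 10 of smallest p in each stage kept their direction under every setting that could test them. The direction of the other named introns was not followed across settings. Taking the lowest row identifier gave no other value, as each intron had 1 row. The causes were not tested.

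Polyadenylated but unspliced precursor and mature transcripts with the intron cannot be told apart. Levels rest on reads of an event and their weights in the fit on counting alone, and introns with few reads reach 0% or 100% by chance.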
